A study of Mus musculus with 6 samples.

Results

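Smooth muscle contractile genes, the 10 genes Acta2, Actg2, Myl9, Myh11, Cald1, Tpm1, Tpm2, Cnn1, Cnn2 and Tagln, were followed in mouse bone marrow mesenchymal stem cells (mBMSCs) after knockdown of RIOK3. They were selected by gene symbol, with earlier results of these data known, and all 10 were found among the 22030 genes of the count table. RNA-seq libraries came from 2 groups, with 3 libraries labelled RIOK3 knockdown and 3 labelled as wild-type negative controls. RIOK3 belongs to the RIO group of atypical kinases, whose members take part in maturation of the small ribosomal subunit. The library titles mark the knockdown with an si prefix, whereas the series' design text describes stable knockdown lines made with lentivirus and in one place calls them knockout, so the agent cannot be settled from the labels. Strain, age, passage, culture medium and the separateness of the 3 cultures per group are not stated by the labels, and p-values therefore measure the spread between these libraries, which may be technical.

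In smooth muscle, force comes from myosin filaments pulling on actin filaments. The actins (Acta2, Actg2) form the thin filament, Myl9 is the regulatory light chain whose phosphorylation switches myosin on, and Myh11 is the smooth muscle myosin heavy chain. Tropomyosins (Tpm1, Tpm2) run along the thin filament, caldesmon (Cald1) and calponins (Cnn1, Cnn2) bind it and restrain the motor, and transgelin (Tagln) is a small actin-binding protein of the calponin family. Many of these genes are driven by serum response factor (SRF) and its cofactors through a DNA motif called the CArG box. Marrow stromal cells and fibroblasts in culture are known to carry many of the same proteins in stress fibres, and Tpm1, Tpm2, Cald1 and Cnn2 are widely made outside muscle.

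Because SRF acts through CArG boxes, promoter windows of the genes (RefSeq, build GRCm38.p6, 250 bases before to 50 after the start) were searched on both strands. Windows were matched for 7 of the 10 genes, Cald1 with 2 of them, and were missing for Actg2, Tagln and Myh11. A CArG box was present in the windows of Myl9 and Cnn2, and the Acta2 window held only boxes in which one base of the A/T core is G or C. No box of either kind was found in the windows of Cnn1, Tpm1, Tpm2 and Cald1. Over all 32851 RefSeq windows of this length, 1.63% held a box and 9.98% held a box or a form with one G or C in the core. The 3 windows with a match are shown 5′ to 3′ in the direction of transcription, with the boxes in capitals:
Acta2, chr19:34255324-34255623, minus strand: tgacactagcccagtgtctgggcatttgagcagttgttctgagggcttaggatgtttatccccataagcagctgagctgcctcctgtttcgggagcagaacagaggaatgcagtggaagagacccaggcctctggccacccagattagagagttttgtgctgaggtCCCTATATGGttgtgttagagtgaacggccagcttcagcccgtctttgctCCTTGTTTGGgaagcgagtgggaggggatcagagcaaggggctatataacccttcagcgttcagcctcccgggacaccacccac
Myl9, chr2:156775214-156775513, plus strand: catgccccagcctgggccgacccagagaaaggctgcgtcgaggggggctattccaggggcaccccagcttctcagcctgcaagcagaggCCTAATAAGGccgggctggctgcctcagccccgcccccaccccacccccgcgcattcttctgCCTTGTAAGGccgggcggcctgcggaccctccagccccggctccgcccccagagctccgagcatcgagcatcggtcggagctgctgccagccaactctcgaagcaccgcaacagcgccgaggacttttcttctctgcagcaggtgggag
Cnn2, chr10:79988350-79988649, plus strand: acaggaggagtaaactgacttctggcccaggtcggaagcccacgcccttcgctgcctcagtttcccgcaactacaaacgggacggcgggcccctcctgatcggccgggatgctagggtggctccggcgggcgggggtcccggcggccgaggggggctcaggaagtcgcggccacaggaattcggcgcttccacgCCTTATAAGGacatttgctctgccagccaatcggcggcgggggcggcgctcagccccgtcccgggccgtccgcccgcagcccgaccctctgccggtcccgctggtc
The Acta2 boxes began 84 and 34 bases before the start and both had a G or C in the core. In the Myl9 window the box began 161 bases before the start, and a form with one G followed at 99 bases. The Cnn2 box began 56 bases before the start. Of these 3 genes, Acta2 and Myl9 were called higher in the knockdown and Cnn2 was not called. Over all tested genes 21.1% were called higher. The Myl9 call was lost in a fit corrected for the GC content of transcripts (log2 fold change 0.15, edgeR adjusted p = 0.521). Whether boxes go with calls was not tested. A match describes these letters and not an occupied site.

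Libraries held between 28327612 and 32569544 counts. Levels are given as CPM (counts scaled to a common library size) scaled with the trimmed mean of M-values (TMM), and a gene was called where the Benjamini-Hochberg adjusted p of edgeR's quasi-likelihood test was under 0.05 over all 13067 genes tested. Riok3 itself had 32.1, 31.5 and 37.2 CPM in the knockdown libraries, against 143, 193 and 135 CPM in the control libraries, a log2 fold change of −2.23 ± 0.178 (SE, edgeR adjusted p = 0.000127). Control replicate 2 stood apart from the other controls: Spearman correlations over tested genes were 0.963 and 0.968 with them, against 0.996 between controls 1 and 3 and 0.996 to 0.997 among knockdown libraries. Fold changes over all genes also followed the GC content of the transcripts, so the fit was repeated with that trend removed and without control replicate 2. Riok3 was called lower in both, at −1.20 ± 0.238 (SE, edgeR adjusted p = 0.0105) with the GC trend removed and −2.05 without control replicate 2. With both removed it was −0.89 (edgeR adjusted p = 7.12e-10). Over all genes 48.0% were called (21.1% higher, 26.8% lower in the knockdown), 31.6% with the GC trend removed (16.3% higher, 15.2% lower), and 71.6% without control replicate 2 (35.1% higher, 36.5% lower). Of the contractile genes, 9 were tested: 2 were called higher (Acta2, Myl9), 1 was called lower (Cald1) and 6 were not called. The median log2 fold change of these 9 was 0.03, beside 0.01 over all tested genes; with the GC trend removed the 9 had a median of −0.25, beside 0.03 over all genes.

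**Figure D1:**
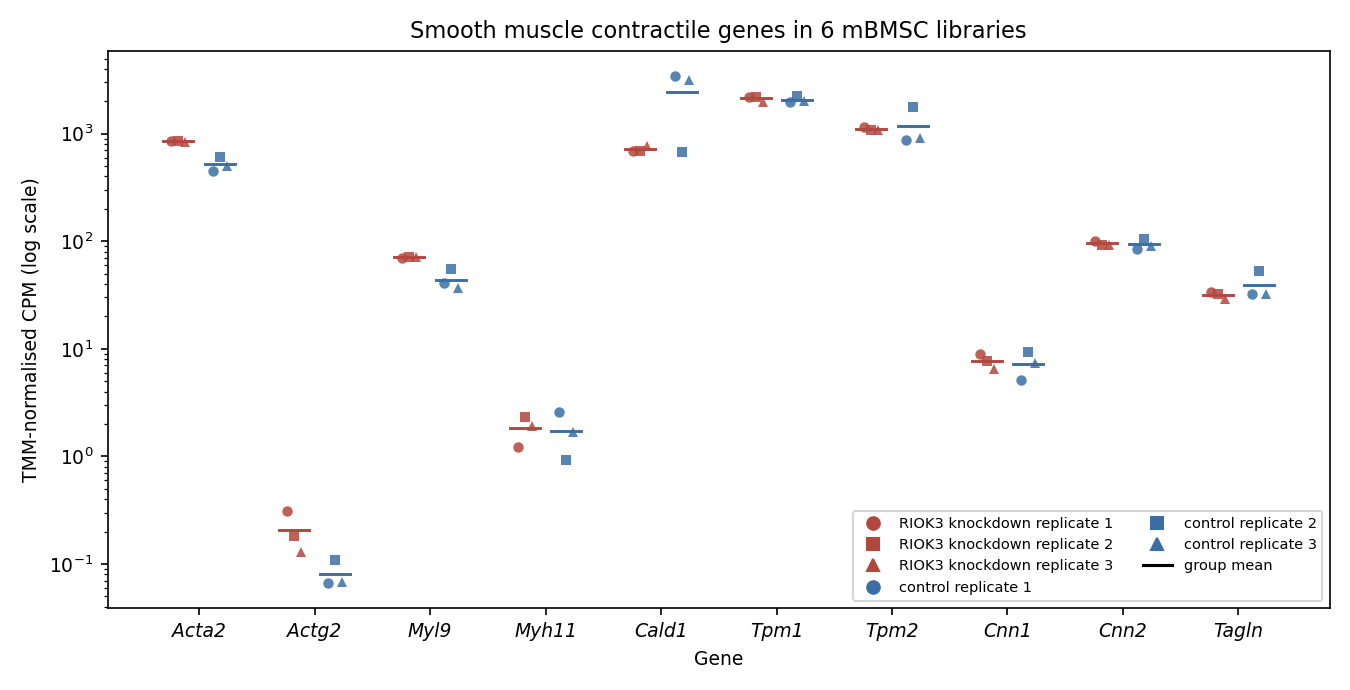
TMM-normalised CPM (log axis) of the 10 contractile genes in each of the 3 RIOK3 knockdown (red) and 3 control (blue) libraries, with bars at group means. Acta2 and Myl9 lie higher in every knockdown library, and control replicate 2 (blue square) lies with the knockdown libraries for Cald1 and above all of them for Tpm2 and Tagln.

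The smooth muscle alpha-actin gene Acta2 (ENSMUSG00000035783.10, chromosome 19) was higher in the knockdown. Its level was 858, 846 and 834 CPM in the knockdown libraries, against 450.5, 614 and 503 CPM in the control libraries. Every knockdown library lay above every control, with 846 ± 12.2 CPM in the knockdown and 522 ± 83.2 CPM in the control (SD, n = 3 each), a 1.62-fold difference. The log2 fold change was 0.70 ± 0.147 (SE, 95% interval 0.35 to 1.04, edgeR adjusted p = 0.00727). Acta2 was called higher under all 22 alternative settings, with log2 fold changes between 0.60 and 0.98. With the GC trend removed it was 0.74 ± 0.185 (SE, edgeR adjusted p = 0.0239), and genes within 1 GC point of Acta2 had a median log2 fold change of −0.02. Of the 50-base windows along its transcript, 0.352% also occur in another gene. Gm12715, one of those genes, had 3990 to 4663 counts in the knockdown libraries and 2404 to 4196 in the control libraries.

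Beside the ubiquitous cytoplasmic actins, the Acta2 difference was shared with one and not the other. The beta-actin gene Actb was called higher, with 2148 ± 11.1 CPM in the knockdown and 1342 ± 166 CPM in the control (SD, n = 3 each, log2 fold change 0.68, edgeR adjusted p = 0.00592). The gamma-actin gene Actg1 averaged 2646.5 CPM in the knockdown and 2676 CPM in the control and was not called (edgeR adjusted p = 0.92). The log2 ratio of Acta2 to Actb therefore averaged −1.34 ± 0.0276 in the knockdown and −1.37 ± 0.114 in the control, whereas the ratio to Actg1 averaged −1.64 ± 0.0207 in the knockdown and −2.37 ± 0.149 in the control (SD, n = 3 each). These ratios were chosen after the values were seen and carry no test. Actg2, the enteric gamma-actin, had 10, 6 and 4 counts in the knockdown libraries and 2, 3 and 2 in the control libraries, too few for the test. Summed over libraries, 20 counts in the knockdown stood against 7 in the control, a depth-adjusted ratio of 2.58 (exact 95% interval 1.05 to 7.23, covering counting error only).

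The regulatory light chain gene Myl9 (ENSMUSG00000067818.7, chromosome 2) was also called higher. It had 69.9, 71.5 and 70.8 CPM in the knockdown libraries, against 41.0, 54.8 and 36.5 CPM in the control libraries. The groups did not overlap, and the knockdown libraries spread far less, with 70.8 ± 0.800 CPM in the knockdown and 44.1 ± 9.53 CPM in the control (SD, n = 3 each). The log2 fold change was 0.68 ± 0.171 (SE, edgeR adjusted p = 0.0148), a 1.61-fold difference. Unlike that of Acta2, the Myl9 call was lost when the GC trend was removed, with a log2 fold change of 0.15 (edgeR adjusted p = 0.521). Genes within 1 GC point of Myl9 had a median log2 fold change of 0.53. It was called with the GC and length trends removed together (0.33, edgeR adjusted p = 0.0446) and with both the GC trend and control replicate 2 removed (0.33, edgeR adjusted p = 0.000797). Leaving out any single knockdown library or control 1 also ended the call, with edgeR adjusted p between 0.0508 and 0.0576.

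The motor gene of differentiated smooth muscle, Myh11, had few counts. It had 39, 77 and 60 counts (1.21, 2.31 and 1.93 CPM) in the knockdown libraries, against 77, 26 and 50 counts (2.58, 0.934 and 1.68 CPM) in the control libraries. The groups overlapped fully, with a log2 fold change of 0.07 ± 0.408 (SE, 95% interval −0.90 to 1.03, edgeR adjusted p = 0.907). Changes within that interval remain possible, given the few counts and the spread between libraries. Of the 50-base windows along the Myh11 transcript, 0.406% also occur in Myh9 or Myh10. Whether reads of those genes were counted for Myh11 was not tested. The non-muscle heavy chain gene Myh9, by contrast, had 11227 ± 713 CPM in the knockdown and 7206 ± 2274 CPM in the control (SD, n = 3 each). Its groups did not overlap, but it was not called (log2 fold change 0.64, edgeR adjusted p = 0.0691). It was called higher in 9 of 22 alternatives, among them DESeq2 (DESeq2 adjusted p = 0.0334) and the fit without control 2 (0.40, edgeR adjusted p = 3.37e-05), and its value was 0.09 with the GC trend removed.

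Cald1 (ENSMUSG00000029761.17, chromosome 6), which encodes the thin filament protein caldesmon, was the only one of the 9 tested genes called lower. It had 696, 693 and 770 CPM in the knockdown libraries, against 3434, 679 and 3176 CPM in the control libraries. Controls 1 and 3 stood far above every knockdown library, while control 2 lay below all 3 of them. The mean was 719 ± 43.7 CPM in the knockdown and 2430 ± 1522 CPM in the control (SD, n = 3 each), and the log2 fold change was −1.76 ± 0.535 (SE, 95% interval −3.02 to −0.49, edgeR adjusted p = 0.031). Without control 2 the log2 fold change was −2.20 (edgeR adjusted p = 2.09e-14). That p-value rests on controls 1 and 3 alone, and leaving out the only control near the knockdown level makes the groups separate by itself. Without any one of the other 5 libraries the call was lost, with edgeR adjusted p between 0.088 and 0.0961. The log2 fold change was then −1.80 to −1.72 without a knockdown library, and −1.43 and −1.51 without control 1 and control 3. With the GC trend removed the log2 fold change was −0.88 ± 0.471 (SE) and was not called (edgeR adjusted p = 0.195), and genes within 1 GC point of Cald1 had a median of −0.67. With both the GC trend and control replicate 2 removed it was −1.30 (edgeR adjusted p = 1.19e-13), again with controls 1 and 3 alone. The gene makes a long smooth muscle form and a short non-muscle form of caldesmon, which counts per gene do not separate. In a bulk library, fewer cells of a type and less RNA per cell cannot be told apart.

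**Figure D2:**
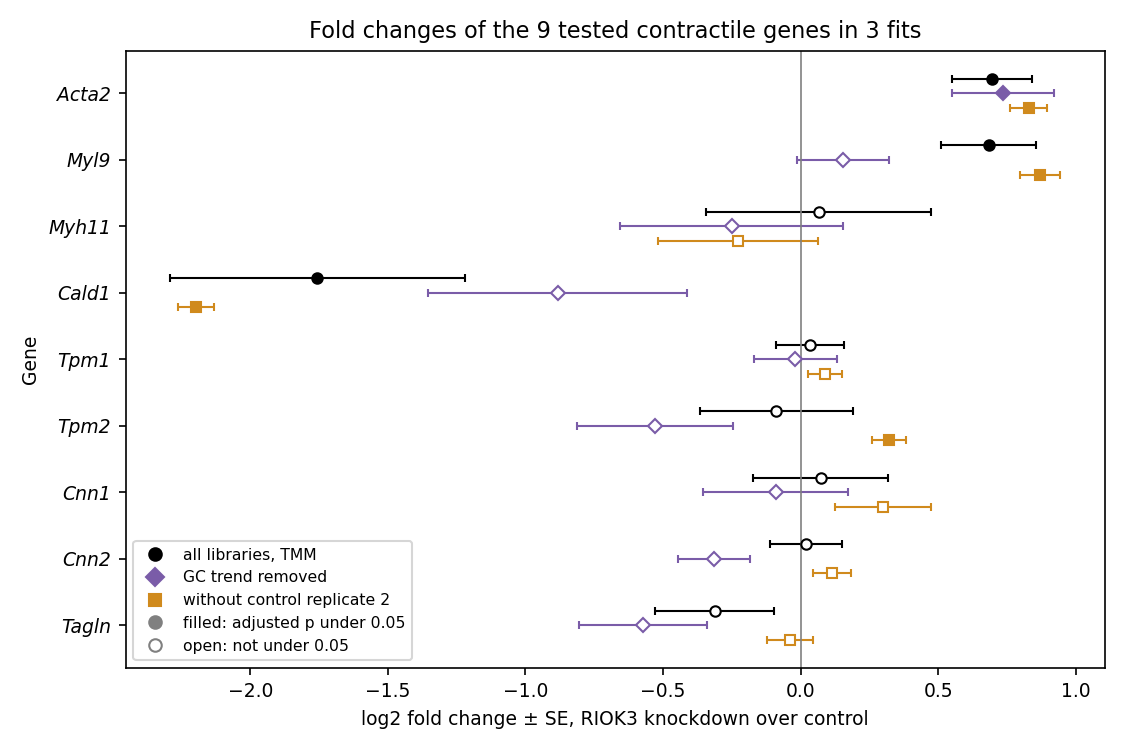
Log2 fold change (knockdown over control, ± SE) of the 9 tested contractile genes from all libraries, with the GC trend removed, and without control replicate 2; filled symbols have an edgeR adjusted p under 0.05. Acta2 is filled and near 0.7 to 0.8 in all 3, Myl9 and Cald1 are open once the GC trend is removed, and Tpm2 lies on opposite sides of 0.

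The tropomyosin genes were among the most abundant of the set and neither was called. Tpm1 (ENSMUSG00000032366.16) had 2207, 2177 and 1992 CPM in the knockdown libraries, against 1985, 2229 and 2017 CPM in the control libraries. The groups overlapped, and the 95% interval of its log2 fold change ran from −0.26 to 0.32 around 0.03 (edgeR adjusted p = 0.843). In the authors' FPKM, which lack the TMM scaling, Tpm1 had 361, 359 and 330 in the knockdown libraries and 268, 298 and 281 in the control libraries, so the groups no longer overlapped, but it was not called there either (log2 fold change 0.31, limma adjusted p = 0.0525). Tpm2 (ENSMUSG00000028464.17) had 1156, 1087 and 1084 CPM in the knockdown libraries, against 869, 1763 and 907 CPM in the control libraries. Here control 2 held 1.99 times the mean of the other controls, and the knockdown libraries lay between them and control 2. Its log2 fold change was −0.09 ± 0.278 (SE, edgeR adjusted p = 0.811) with all libraries and 0.32 without control 2 (edgeR adjusted p = 0.000197). Removal of the GC trend gave −0.53 (edgeR adjusted p = 0.198). No direction can be given for Tpm2.

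Of the calponins, the smooth muscle form was low and the widely expressed form moderate. Cnn1 (ENSMUSG00000001349.6) had 8.89, 7.69 and 6.44 CPM in the knockdown libraries, against 5.17, 9.41 and 7.31 CPM in the control libraries. The groups overlapped, with a log2 fold change of 0.07 ± 0.245 (SE, edgeR adjusted p = 0.825). Cnn2 (ENSMUSG00000004665.11) had 101, 92.5 and 92.4 CPM in the knockdown libraries, against 85.5, 106 and 90.9 CPM in the control libraries. They overlapped too, and the 95% interval of the log2 fold change ran from −0.29 to 0.33 (edgeR adjusted p = 0.916). Tagln (ENSMUSG00000032085.6), which is widely used as an early smooth muscle marker, had 33.6, 32 and 29.1 CPM in the knockdown libraries, against 32.4, 52.7 and 32.5 CPM in the control libraries. Control 2 alone was high, and the log2 fold change was −0.31 ± 0.216 (SE, edgeR adjusted p = 0.268) with all libraries and −0.04 without control 2. It was −0.57 with the GC trend removed (edgeR adjusted p = 0.103) and was called lower with the GC and length trends removed together (−0.46, edgeR adjusted p = 0.0453). Pcsk7 lies over Tagln on the opposite strand in the GENCODE M21 annotation, with 298 to 345 counts in the knockdown libraries and 130 to 245 in the control libraries.

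Ratios of close relatives, which no scaling factor can alter, gave no call. The log2 ratio of Cnn1 to Cnn2 averaged −3.65 ± 0.175 in the knockdown and −3.73 ± 0.288 in the control (SD, n = 3 each, difference 0.08, two-sided exact permutation p = 0.7). That of Tpm1 to Tpm2 averaged 0.94 ± 0.0625 in the knockdown and 0.89 ± 0.482 in the control (difference 0.04, two-sided exact permutation p = 1). Both adjusted p were 1 over the 2 pairs, and 3 libraries against 3 cannot give less than 0.1. Actg2 was below the filter, so its pair with Acta2 was not tested.

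For most of the 10 genes the controls spread more widely than the knockdown libraries. Control replicate 2 lay above both other controls for 8 genes and below both for Myh11 and Cald1. Against the knockdown it lay above all 3 libraries for Tagln, Cnn1, Cnn2, Tpm1 and Tpm2 and below all 3 for Acta2, Actg2, Myl9, Myh11 and Cald1. The coefficient of variation between knockdown libraries was 1.44% for Acta2 and 6.08% for Cald1, against 15.9% for Acta2 and 62.6% for Cald1 between control libraries. For Tpm1 the spread was similar, at 5.48% in the knockdown and 6.38% in the control. Actg2, with few counts, spread more in the knockdown (45.4%) than in the control (29.0%). Summed CPM of the 10 genes was 5133, 5009 and 4881 in the knockdown libraries, against 6905, 5509 and 6772 in the control libraries. Without Cald1 it was 4437, 4316 and 4111 in the knockdown libraries, against 3472, 4830 and 3596 in the control libraries. The groups then overlapped, whereas with Cald1 every knockdown sum lay below every control sum. Only Acta2 and Myl9 of the 9 tested genes had groups that did not overlap, whereas 62.1% of all tested genes did (30.8% with the knockdown higher and 31.3% with it lower).

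**Figure D3:**
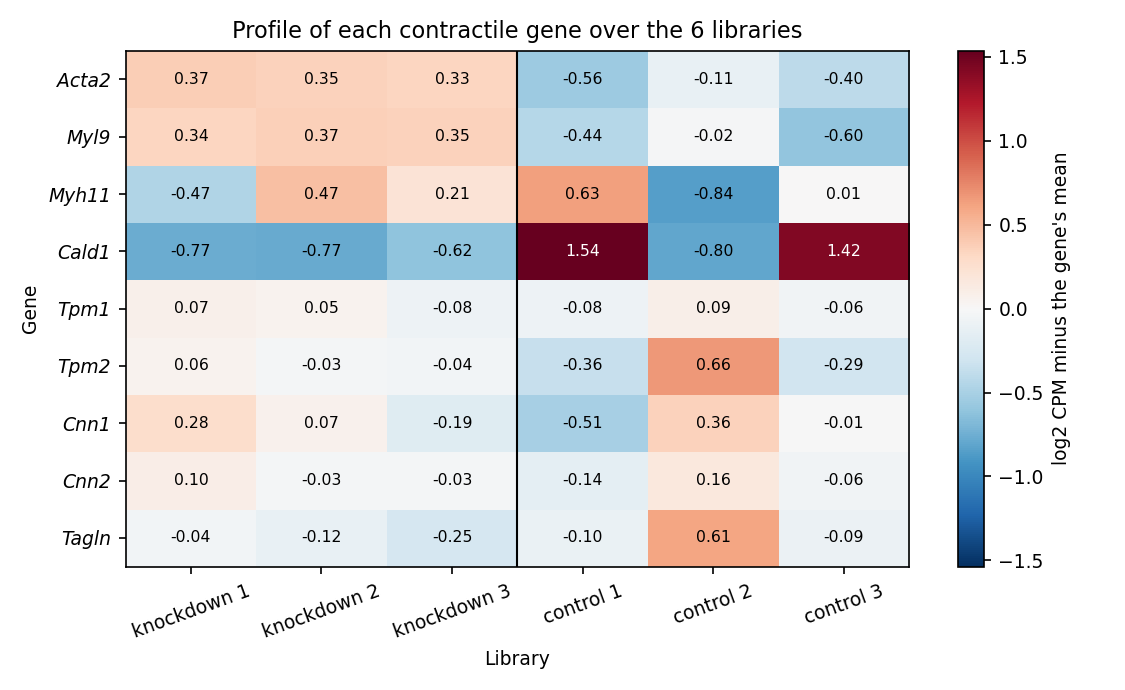
Log2 CPM of each tested contractile gene minus its own mean over the 6 libraries, knockdown libraries at left and control libraries at right. Acta2 and Myl9 are positive in the knockdown and negative in every control, Cald1 is high in controls 1 and 3 alone, and control 2 carries the highest value of Tpm2, Cnn1, Cnn2, Tpm1 and Tagln.

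Levels of different genes can be set side by side only per length, for which the authors' FPKM (fragments scaled by gene length and library size) were used. In the knockdown Acta2 led with 412 ± 3.15 FPKM, followed by Tpm2 with 407 ± 12.3 and Tpm1 with 350 ± 17.2 FPKM (SD, n = 3 each). Acta2 and Tpm2 overlapped there, as did Myl9 (65.0 ± 1.09 FPKM) and Cald1 (63.8 ± 4.24 FPKM). Below them came Cnn2 with 41.4, Tagln with 17.0, Cnn1 with 2.99, Myh11 with 0.257 and Actg2 with 0.14 FPKM. In the control Tpm2 led with 356 ± 147 FPKM, followed by Tpm1 with 282 ± 14.9, Acta2 with 210 ± 31.3 and Cald1 with 179 ± 113 FPKM (SD, n = 3 each). Tpm2 overlapped with Tpm1 in the control, and Acta2 with Cald1. Cnn2 with 33.7, Myl9 with 33.4 (overlapping with Cnn2), Tagln with 17.4, Cnn1 with 2.35, Myh11 with 0.203 and Actg2 with 0.0467 FPKM completed the order. In these FPKM Acta2 thus ranked first in the knockdown, without standing apart from Tpm2, and below both tropomyosins in the control. This order depends on the gene lengths used. The FPKM imply 6.62 to 6.78 kb for Tpm1 and 12.3 to 12.6 kb for Cald1. Their GENCODE M21 transcripts used for GC content are 1824 and 4777 nt long. For Acta2 the FPKM imply 2.24 to 2.29 kb, against 2035 nt. Per transcript length, Tpm1 and Cald1 would stand higher relative to Acta2. The genes of mature smooth muscle (Cnn1, Myh11, Actg2) were at the bottom in both groups.

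Of 9 tested genes of later smooth muscle differentiation, 2 rose, 2 fell and 5 were not called, with a median log2 fold change of 0.18. With the GC trend removed 1 rose and 3 fell (median −0.32). Over all tested genes 48.0% were called (21.1% higher, 26.8% lower), and 31.6% with the GC trend removed (16.3% higher, 15.2% lower). No list was tested as a set. Nexn, which encodes the actin filament-binding protein nexilin, fell to 57.6 ± 3.93 CPM in the knockdown, against 849 ± 246 CPM in the control (SD, n = 3 each, log2 fold change −3.88, edgeR adjusted p = 5.14e-05). It was 56.1, 54.6 and 62.1 CPM in the knockdown libraries and 1089, 598 and 862 CPM in the control libraries, with no overlap. The call held once the GC trend was removed, at a smaller log2 fold change of −1.90 (edgeR adjusted p = 0.000329). Itga8, an integrin subunit, fell to 1.85 CPM in the knockdown, against 6.50 CPM in the control. Lmod1, the smooth muscle leiomodin that nucleates actin, rose to 4.43 CPM, against 2.12 CPM in the control. Ppp1r14a, an inhibitor of myosin phosphatase, was called higher at 0.706 CPM, against 0.231 CPM in the control. It had only 33, 16 and 19 counts in the knockdown libraries, and 8, 9 and 3 in the control libraries. Ppp1r14a passed the filter only through the knockdown libraries, so its call carries little weight. Itga8 and Lmod1 kept their calls with the GC trend removed and Ppp1r14a did not (1.03, edgeR adjusted p = 0.167). The smoothelin gene Smtn averaged 238 CPM in the knockdown and 211 CPM in the control and was not called, whereas with the GC trend removed it was lower (log2 fold change −0.48, edgeR adjusted p = 0.0443). Mylk, the myosin light chain kinase gene, stood at 0.531 CPM in the knockdown and 0.699 CPM in the control, and the intermediate filament gene Des at 0.607 CPM in the knockdown and 0.205 CPM in the control, neither called. Pln, Casq2 and Kcnmb1 were not found by symbol in the count table, so no level can be given.

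Among SRF and its cofactors 4 of 11 tested genes rose and 2 fell (median 0.41), beside 48.0% called over all tested genes. With the GC trend removed 1 rose and 2 fell (median 0.20), beside 31.6% called over all genes. Srf had 114 ± 7.57 CPM in the knockdown and 75.7 ± 11.9 CPM in the control (SD, n = 3 each, log2 fold change 0.59, edgeR adjusted p = 0.0166). With the GC trend removed its value turned to −0.15 and was not called (edgeR adjusted p = 0.562). Mrtfa, the actin-sensing cofactor of SRF, was higher with 19.8 CPM in the knockdown and 11.3 CPM in the control, as was the LIM protein gene Csrp1 with 70.0 CPM in the knockdown and 43.7 CPM in the control. Both calls were lost with the GC trend removed, with log2 fold changes of 0.22 for Mrtfa (edgeR adjusted p = 0.568) and 0.28 for Csrp1 (edgeR adjusted p = 0.111). Klf4, a known repressor of smooth muscle genes, fell to 28 ± 2.08 CPM in the knockdown, against 46.7 ± 2.06 CPM in the control (SD, n = 3 each, log2 fold change −0.73, edgeR adjusted p = 0.00281). It was lower with the GC trend removed as well (−1.14, edgeR adjusted p = 0.0008). Elk1 was also called higher (1.29, edgeR adjusted p = 0.0362) and Elk4 lower (−0.45, edgeR adjusted p = 0.0377), and both lost the call with the GC trend removed. That fit instead called Elk3 higher (0.58, edgeR adjusted p = 0.016) and Fhl2 lower (−0.63, edgeR adjusted p = 0.032). Myocd, the smooth and cardiac muscle cofactor, was not found by symbol in the count table, so no level can be given.

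Of 11 non-muscle counterparts of the contractile genes 2 rose and none fell (median 0.04), beside 48.0% called over all tested genes. With the GC trend removed the counts were the same (median 0.09), though not for the same genes, beside 31.6% called over all genes. Besides Actb, Tagln2 was higher, with 54.0 ± 0.656 CPM in the knockdown and 33.2 ± 4.42 CPM in the control (SD, n = 3 each, log2 fold change 0.70, edgeR adjusted p = 0.00525). The Actb call held with the GC trend removed (0.55, edgeR adjusted p = 0.0366), and the Tagln2 call did not (0.22, edgeR adjusted p = 0.235). Tpm3, Tpm4, Myl6, Myl12a, Myl12b, Cnn3 and Myh10 were not called.

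Of 15 actin linkers of stress fibres and focal adhesions 5 rose and 2 fell (median 0.18), beside 48.0% called over all tested genes. With the GC trend removed 1 rose and 2 fell (median −0.15), beside 31.6% called over all genes. Zyx, which encodes zyxin, had 473 ± 25.5 CPM in the knockdown and 236 ± 25.2 CPM in the control (SD, n = 3 each, log2 fold change 1.0, edgeR adjusted p = 0.000951) and was also called with the GC trend removed (0.47, edgeR adjusted p = 0.0305). Pdlim7, a scaffold of actin filaments, had 328 CPM in the knockdown and 189.5 CPM in the control (log2 fold change 0.79), a call that was lost with the GC trend removed (0.14, edgeR adjusted p = 0.34). Lpp, a relative of zyxin, fell to 33.8 CPM in the knockdown, against 91.0 CPM in the control (log2 fold change −1.43), which was likewise lost (−0.15, edgeR adjusted p = 0.472). Vcl and Flna, encoding vinculin and filamin A, were not called, with 70.2 and 764 CPM in the knockdown and 66.6 and 743 CPM in the control.

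**Figure D4:**
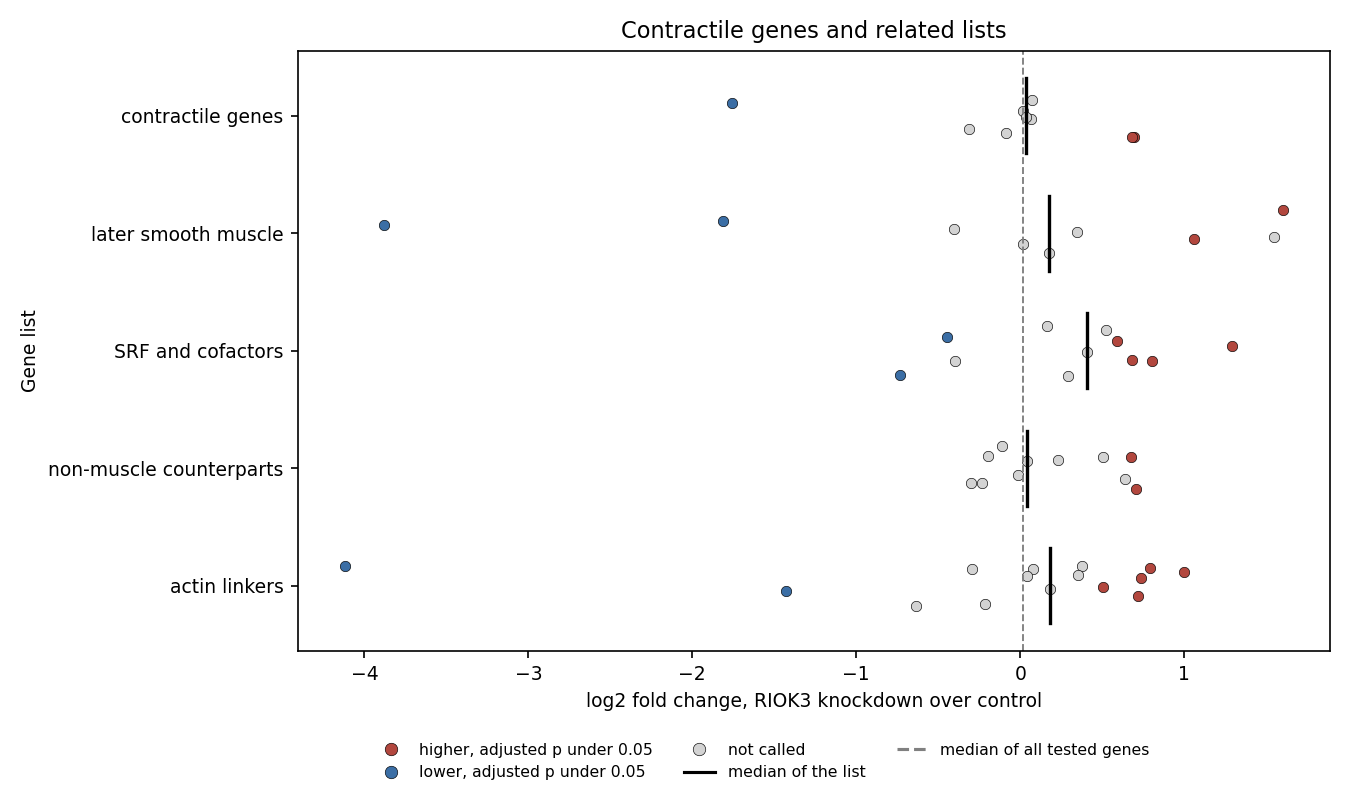
Log2 fold change (knockdown over control) of each tested gene of the contractile set and 4 related lists; red and blue mark edgeR adjusted p under 0.05, and black bars mark list medians. The list medians lie between 0.03 and 0.41, beside 0.01 over all tested genes (dashed), and every list has genes on both sides.

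Of the genes not in the set, Tnip2, Xndc1 and Terf2ip had profiles over the 6 libraries closest to that of Tpm1, the member with the highest mean CPM. Their root mean square differences from it were 0.0283, 0.0307 and 0.0331 on the log2 scale, among 9214 genes of at least 5 CPM. None was called, which follows from how they were chosen, since Tpm1 was not called either. Tnip2 had 99.0 CPM in the knockdown and 98.5 CPM in the control, and was called lower with the GC trend removed (−0.37, edgeR adjusted p = 0.0463).

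Markers of other cells were read beside these values. Their calls stand beside 48.0% called over all tested genes, and 31.6% with the GC trend removed. Of the mesenchymal stromal markers, 13 were tested, 6 rose and 4 fell, with a summed level of 736 to 767 CPM in the knockdown and 511 to 672 CPM in the control. Pdgfrb, Eng, Ly6a, Col1a1, Col1a2 and Col3a1 rose, and Dcn (−3.00), Prrx1 (−1.04), Pdgfra (−0.95) and Cd44 (−0.80) fell. With the GC trend removed 5 rose and 3 fell, but not the same genes. Prrx1 was then called higher (0.48, edgeR adjusted p = 0.015) and Twist1 lower (−0.59, edgeR adjusted p = 0.00703). Lepr (0.0611 CPM in the knockdown and 0.330 CPM in the control) and Thy1 (0.763 CPM in the knockdown and 0.898 CPM in the control) were close to 0, although Lepr is a known marker of marrow stromal cells in vivo. Of the 9 markers of pericytes and vascular smooth muscle, 4 were tested and 3 rose (Notch3, Ndufa4l2, Cspg4), with a summed level of 12.5 to 14.6 CPM in the knockdown and 2.05 to 3.89 CPM in the control. Notch3 (1.75) and Ndufa4l2 (2.43) kept their calls with the GC trend removed and Cspg4 did not (0.66, edgeR adjusted p = 0.118). They moved in the same direction as Acta2 and Myl9, and their part in those differences was not tested. Rgs5, Kcnj8, Abcc9 and Higd1b of that list were not found by symbol in the count table. Cox4i2 averaged 0.0207 CPM in the knockdown and was at 0 in the control. Of the striated muscle markers none of the 3 tested was called, with sums of 9.24 to 10.8 CPM in the knockdown and 8.56 to 11.4 CPM in the control and Acta1 at 0.0407 CPM in the knockdown and 0.0351 CPM in the control. Macrophage markers summed to 46.5 to 51.7 CPM in the knockdown and 26.6 to 43.3 CPM in the control, nearly all of it Cd68, while Ptprc stood at 0.0104 CPM in the knockdown and 0.0672 CPM in the control. Neither of the 2 tested, Cd68 (0.45) and Cd14 (−0.69), was called. Cd14 was called lower with the GC trend removed (−0.94, edgeR adjusted p = 0.0377). Endothelial markers summed to 14.7 to 16.3 CPM in the knockdown and 7.22 to 10.8 CPM in the control, with 1 of 3 tested called higher (Vwf, not called with the GC trend removed), and epithelial markers to at most 0.483 CPM in the knockdown and 0.359 CPM in the control.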

How the data were processed

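Stranded mRNA libraries were made from total RNA and sequenced as read pairs, per the labels' protocols; GRCm39, HISAT2 and MultiQC are named in the submitters' processing notes, and the counter and its strand setting are stated neither there nor in the labels. The deposited table holds raw counts per gene, and a second deposited table holds FPKM computed by the authors. The main test on the 6 libraries was run on counts in R 4.3.3 by edgeR 4.0.16 (filterByExpr, TMM, robust quasi-likelihood fit, two-sided, Benjamini-Hochberg over 13067 genes). Common biological variation was 0.213. FPKM were tested with limma 3.58.1 on log2(FPKM + 1) after requiring 1 FPKM in 3 libraries, and the fold change on that scale understates changes of low genes. DESeq2 1.42.0 was an alternative. GC content came from 1 transcript per gene of GENCODE M21 (GRCm38), available for 13043 tested genes, and its trend was removed per library with loess (span 0.3). An SE is the size of the log2 fold change over the root of F. The genes and lists were chosen with earlier results of these data known. Named genes of each related list were the 3 with the smallest p and at least 5 CPM in the higher group, and other genes of those lists were named after their values were seen. One related list is not reported here. The steps were tested on simulated counts that varied less than these data and held no library that stood apart. That test therefore does not cover a library such as control replicate 2. Libraries sharing a replicate number had correlations of −0.076, 0.044 and 0.052 in their deviations, so the numbers were not treated as pairs.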

Additional observations from a re-analysis of the deposited data

How the results depend on the processing

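Contractile genes: 3 were called (2 higher, 1 lower) with DESeq2, with RLE or upper-quartile factors, with library totals alone, without a filter, with a filter of 5 CPM, and with the contractile genes left out of the scaling factors (the last chosen after seeing the data). With the GC trend removed 1 was called (1 higher, 0 lower), and likewise 1 with that trend and a replicate block, whereas with the GC and length trends removed 3 were called: Acta2 and Myl9 higher and Tagln lower, with Cald1 lost (−0.77, edgeR adjusted p = 0.166). With the GC trend removed and without control replicate 2, 6 were called, 4 of them lower: Tagln, Tpm2 (−0.12), Cald1 and Cnn2, which turned to −0.20. Over all genes the same fit called 8230 of 13372, 3729 of them lower. Tpm2 turned to 0.29 with voom sample weights and 0.32 without control replicate 2. The FPKM fits called 2 genes, 0 of them lower, at either pseudocount and without a filter. Leaving out 1 library gave 1 to 4 calls (1 to 3 higher, 0 to 1 lower). Log2 fold changes that were not called ranged over the alternatives from −0.13 to 0.36 for Cnn1, −0.35 to 0.30 for Cnn2, −0.53 to 0.47 for Myh11, −0.02 to 0.31 for Tpm1 and −0.57 to 0.00 for Tagln, and a change of sign between 2 uncalled values was not counted as a reversal. The difference in log2 ratio ranged from −0.08 to 0.26 for Cnn1 over Cnn2 and from −0.24 to 0.44 for Tpm1 over Tpm2. Over all genes, 6266 were called (2758 higher, 3508 lower), against 9477 (4673 higher) with voom weights, 4280 higher with library totals alone, 4118 (1988 lower) with the GC trend removed, 3101 (1562 higher, 1539 lower) with that and a replicate block, 4501 higher with the GC trend and control replicate 2 removed, and 1976 and 1974 lower with log2(FPKM + 1) and log2(FPKM + 0.1). Leaving out 1 library gave 4340 to 9592 calls, 1647 to 4701 of them higher and 2693 to 4891 lower, and the highest of each was without control replicate 2. The replicate block alone gave 5615 calls (2390 higher, 3225 lower), left the pairs' differences at 0.08 and 0.04 with adjusted p of 1, and changed no call among the contractile genes. Lower genes were 56.0% of calls, 43.8% with upper-quartile factors and 39.7% with library totals, which moved the median of all genes to 0.21 and 0.26 from 0.01 (log2). Among the related genes, values turned round with the GC trend removed alone, together with length, or together with control replicate 2: Smtn to −0.48, −0.55 and −0.61, Srf to −0.15, −0.27 and −0.33 (−0.12 with a replicate block) and Tnip2 to −0.37, −0.36 and −0.30. Lpp turned to 0.19 with GC and length, and Myh9 to −0.16 with the GC trend and control replicate 2 removed. The cause was not tested. Of the alternatives for single genes, 479 stayed on the same side of the threshold with no called value changing sign, 31 lost the call, 20 gained it and 15 reversed, and of those for list counts and medians 169 stayed within the limits set for a change and 95 moved. With upper-quartile factors and library totals, later smooth muscle genes had 4 higher (medians 0.38 and 0.42) and non-muscle counterparts 5 (0.20 and 0.30). SRF and cofactors had 5 and 6 higher and actin linkers 6 and 7. With voom weights the non-muscle counterparts had 6 higher and 2 lower, and with a filter of 5 CPM the later smooth muscle genes had 0 higher and 2 lower (median −1.83). Without control replicate 2, actin linkers had 6 higher and 7 lower. Depth limits Actg2 and Myh11, and 3 libraries a group with 1 that stood apart limit the rest.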
